A study of Peromyscus maniculatus and Peromyscus polionotus and Peromyscus maniculatus x Peromyscus polionotus with 18 samples.

Results

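The potassium channel genes are the pore-forming and accessory subunits of the potassium channels of the brain. They were taken as all gene symbols made of Kcn, a family letter code and a number, together with the Kcnip genes; Kcnk9 was left out by the rule. This gave 90 of the 22000 gene names in the deposited tables, in 15 subfamilies. Members made up 89 of the 20731 genes in the parental table and 65 of the 11928 in the hybrid table. The tables shared 64 members, and Kcnq3 was in the hybrid table only.

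Potassium channels let potassium ions leave or enter a cell and so set its resting potential, end each action potential and pace repetitive firing. Voltage-gated subunits of the Kcna to Kcnd groups form channels as tetramers, silent subunits join them without forming channels of their own, and Kcnab, Kcnip and Kcne proteins bind to them as partners. Calcium-activated (Kcnma, Kcnn), sodium-activated (Kcnt), inwardly rectifying (Kcnj) and leak channels (Kcnk) complete the set. In the brain glia, blood vessels and choroid plexus carry their own members beside those of neurons.

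Whole brains of adult males, 50 to 80 days old, were compared in 6 groups of 3 libraries. The groups were Peromyscus polionotus after a burrowing trial, P. polionotus after a control trial, P. maniculatus after a burrowing trial, P. maniculatus after a control trial, and F1 hybrids of both species after a burrowing or a control trial. Every animal had first been run through earlier trials in sand-filled enclosures and was then assigned at random to its test trial; the labels used here do not describe the control trial further. Brains were taken right after the test trial. The labels name no engineered allele and no drug. The labels do not say which species was the mother of the hybrids, and each library was taken to stand for a single animal. The series asks how the species and the alleles within a hybrid differ in brain expression, and how expression differs with the burrowing trial. Since whole brains were used, fewer cells of a type and less RNA per cell cannot be told apart in the differences between species and between trials.

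Parental libraries were deposited as TPM, a transcript level scaled for length and library total that keeps no depth, so their depth is unknown. Hybrid libraries were deposited as counts per parental allele, with 11415175 to 53906964 allele-assigned counts per animal, of which 52.6% to 53.1% were assigned to the polionotus allele. All 5 neuron, 6 astrocyte, 6 oligodendrocyte and 5 microglia markers were above 0 in every parental library. Some marker lists differed between the species without overlap of their summed TPM. Microglia markers summed to 215 to 267 TPM in P. polionotus, against 148 to 196 TPM in P. maniculatus. Oligodendrocyte precursor markers summed to 31.2 to 36.0 TPM in P. polionotus, against 26.0 to 29.9 TPM in P. maniculatus, and striatal projection neuron markers to 1120 to 1280 TPM in P. polionotus, against 754 to 1060 TPM in P. maniculatus. Endothelial and pericyte markers went the other way, with 157 to 247 TPM in P. polionotus, against 249 to 306 TPM in P. maniculatus. So did the pituitary markers, of which 3 of 5 were in the table, with 3.05 to 6.09 TPM against 6.51 to 11.4 TPM in P. maniculatus. The mean log2 level of the pituitary list overlapped between the species. Within a species, single libraries also stood apart. The cortex and hippocampus list was lowest in P. polionotus burrowing 3 (855 TPM, others of its species 978 to 1130) and in P. maniculatus control 3 (882 TPM, others of its species 1100 to 1170). The hindbrain list was lowest in P. polionotus control 2 (6.22 TPM, in its species up to 39.0). All 3 P. polionotus controls (21.4, 6.22 and 13.1 TPM) lay below all 3 burrowing libraries of that species (30.2, 32.0 and 39.0 TPM). Controls 2 and 3, the lowest, were left out together in an alternative below. The part of these lists in the differences below was not tested.

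Levels of the channel genes ran over more than 4 orders of magnitude of TPM. The highest mean over the 12 parental libraries was that of Kcna1, an axonal Kv1 subunit mutated in episodic ataxia, at 468 TPM. Its partner Kcna2 followed at 289 TPM, and the silent subunit Kcnf1 at 251 TPM. Kcnip2, a calcium-binding partner of the Kv4 channels, averaged 215 TPM, and Kcnj9, a subunit of the G protein-gated inward rectifiers, 166 TPM. Kcna6 (158 TPM), Kcnab3 (111 TPM), the pore of the neuronal ATP-sensitive channel Kcnj11 (99.97 TPM) and Kcnh3 (93.99 TPM) were also among the first 10. Thus Kcna1 and Kcna2 stood above every other member.

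The filter of a mean of at least 1 TPM was passed by 71 members, and 18 members were under it. Those 18 were Kcna7, Kcna10, Kcnb2, Kcnh8, Kcnj1, Kcnj5, Kcnj13, Kcnj15, Kcnk5, Kcnk6, Kcnk15, Kcnk17, Kcnk18, Kcnmb2, Kcnmb3, Kcnn4, Kcnu1 and Kcnv2. They include channels known mainly from other organs, such as Kcnj1 of the kidney and Kcnu1 of sperm. Under the filter, the libraries of the species did not overlap for 3 members. The share of all genes under the filter without overlap was not computed. The intermediate-conductance channel Kcnn4 was listed at 0.834 to 1.77 TPM in P. polionotus, against 0.303 to 0.572 TPM in P. maniculatus. Kcnk5, an alkaline-activated leak channel, was at 0.647 to 1.28 TPM in P. polionotus, against 0.115 to 0.548 TPM in P. maniculatus. Kcnu1 was at 0.982 to 1.43 TPM in P. polionotus, against 0.0550 to 0.150 TPM in P. maniculatus. These are levels near the bottom of the table, and Kcnu1 shares its place in the reference annotation with Ash2l, so that its reads are uncertain.

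The first comparison set P. polionotus against P. maniculatus over both trials, by limma on log2(TPM + 1) across all 14366 genes that passed the filter, with the 6 libraries of each species. Among the members, 30 of 71 differed at an adjusted p under 0.05 (42.3%), with 15 higher and 15 lower in P. polionotus. Of all genes 52.4% were called, 32.6% higher and 19.8% lower. The share called was thus smaller among the channel genes in this fit, and that gap was not tested. Quantile normalization called 34 of 71 members and 7683 of 14366 genes. With quantile normalization the split became 11 higher and 23 lower, and with median scaling 11 higher and 22 lower. The median log2 difference was -0.01 over the members and 0.06 over all genes tested. The libraries of the species did not overlap for 21 of the 71 members (29.6%), against 32.8% of all genes. Just inside the threshold were Kcna3 (adjusted p = 0.0488), Kcnj8 (0.0392) and Kcnip1 (0.0369); just outside it were Kcnj6 (0.0518), Kcnv1 (0.0708) and Kcnj10 (0.0735).

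**Figure D1:**
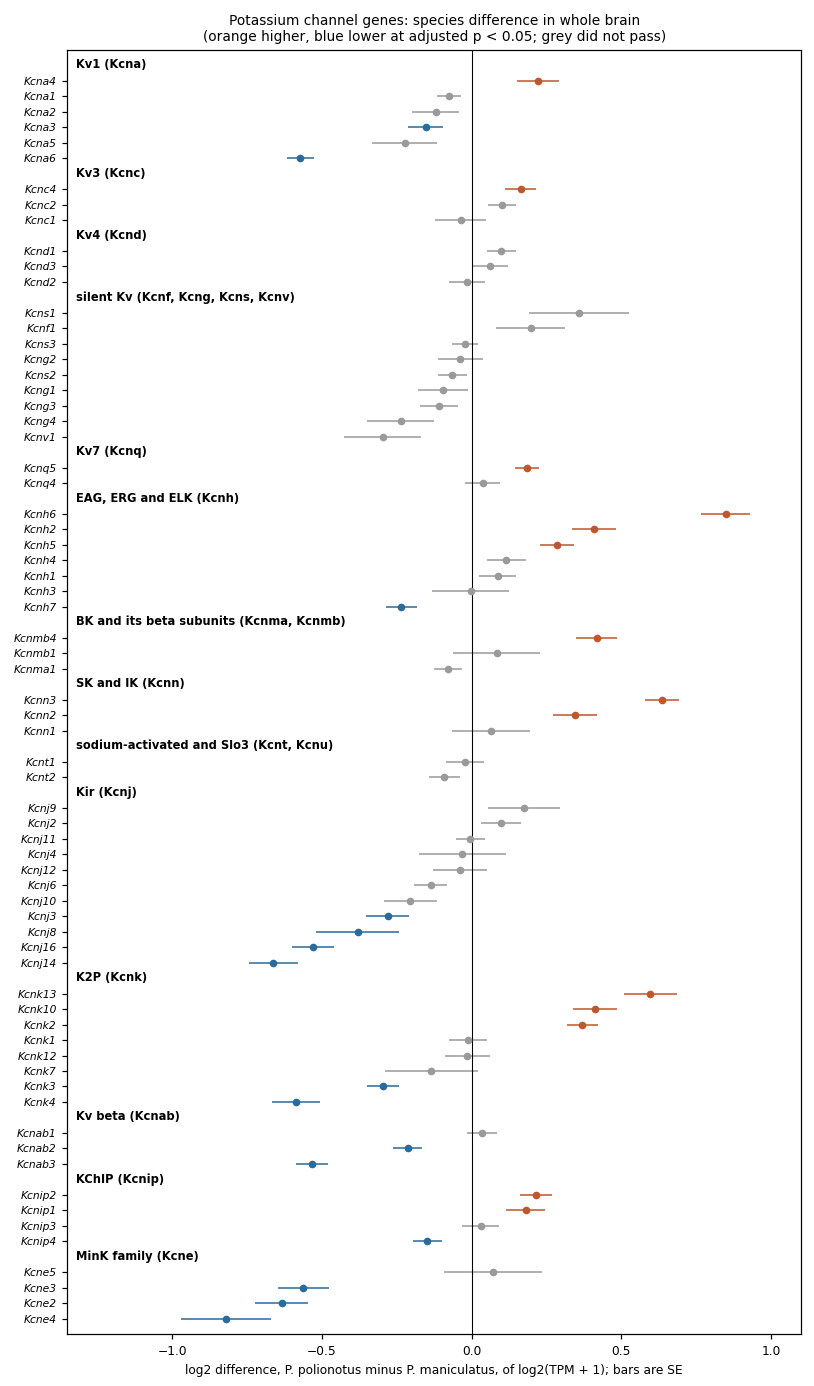
Log2 difference of log2(TPM + 1), P. polionotus minus P. maniculatus, for 68 of the 71 potassium channel genes past the filter, grouped by subfamily; points are estimates from 6 libraries per species and bars are standard errors. The 14 shown as higher (orange) include 3 Kcnh and 2 Kcnn genes, and the 15 shown as lower (blue) include 4 Kcnj and 3 Kcne genes; over all 71 the counts under quantile normalization were 11 higher and 23 lower.

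Among the voltage-gated pores, the Kv1 group differed most through Kcna6, a delayed-rectifier subunit found with Kcna1 and Kcna2 in axons. Its lowest, median and highest levels were 112, 129.7 and 132 TPM in P. polionotus, and 179.7, 188.5 and 201 TPM in P. maniculatus. All 6 P. polionotus libraries lay below all 6 P. maniculatus libraries. The log2 difference was -0.57 (SE 0.05, adjusted p = 2.37e-06 by limma), and the mean level in P. polionotus was 0.671 times that in P. maniculatus. The lowest P. polionotus value came from control 2, the library with the lowest hindbrain list.

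The other Kv1 genes differed less. Kcna1 averaged 456 ± 20.6 TPM in P. polionotus, against 480.4 ± 11.4 TPM in P. maniculatus (n = 6 each, ± SD), and Kcna2 averaged 277 ± 30.2 TPM in P. polionotus, against 301 ± 26.2 TPM in P. maniculatus; neither passed in this fit. Under median scaling Kcna1 passed as lower (-0.14, adjusted p = 0.0187 by limma), and under quantile normalization likewise (0.0245). Kcna4, the Kv1 subunit that inactivates rapidly, was higher in P. polionotus (61.1 ± 5.16 TPM, against 52.3 ± 5.55 TPM in P. maniculatus; log2 difference 0.22, SE 0.07, adjusted p = 0.0214 by limma). That call was lost under median scaling (adjusted p = 0.127), under quantile normalization (0.0883) and without P. maniculatus burrowing 3 (0.0534). Kcna3, best known from lymphocytes and microglia, was slightly lower in P. polionotus, at 43.3 ± 2.25 TPM against 48.4 ± 3.91 TPM in P. maniculatus.

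In the Kv3 group, whose fast channels let neurons fire at high rates, Kcnc4 was higher, with 60.3 ± 4.22 TPM in P. polionotus, against 53.7 ± 2.50 TPM in P. maniculatus (log2 difference 0.16, SE 0.05, adjusted p = 0.0235 by limma). Kcnc1, the Kv3 subunit of many interneurons, averaged 78.7 ± 9.31 TPM in P. polionotus, against 80.6 ± 7.58 TPM in P. maniculatus, and its difference did not pass.

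No member of the Kv4 and silent groups passed between the species (0 of 3 and 0 of 9). Kcnd2, a pore of the dendritic A-type current, was at 4.08 ± 0.229 TPM in P. polionotus, against 4.15 ± 0.498 TPM in P. maniculatus. Kcnv1, a silent subunit of the cortex, was at 76.0 ± 12.1 TPM in P. polionotus, against 93.2 ± 12.8 TPM in P. maniculatus; its adjusted p of 0.0708 became 0.0461 under quantile normalization, 0.0268 without P. maniculatus control 3 and 0.0468 without P. polionotus control 3. At an unadjusted p under 0.05, 1 of the 9 silent subunits and none of the Kv4 genes differed.

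Of the Kv7 genes, which carry the M-current that restrains repetitive firing, Kcnq5 was higher. It averaged 9.48 ± 0.384 TPM in P. polionotus, against 8.22 ± 0.367 TPM in P. maniculatus, with no overlap (log2 difference 0.19, SE 0.04, adjusted p = 0.00244 by limma). Under median scaling its difference fell to 0.12 and did not pass (adjusted p = 0.0563).

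The Kcnh group holds the EAG, ERG and ELK channels, and 3 of its 7 tested members were higher and 1 lower. Kcnh6, an ERG channel, had the largest positive difference of the 71 members tested. Its lowest, median and highest levels were 3.5, 4.13 and 5.04 TPM in P. polionotus, against 1.36, 1.95 and 2.23 TPM in P. maniculatus. The species were well apart at this low level (mean ratio 2.22, log2 difference 0.85, SE 0.08, adjusted p = 1.1e-05 by limma). Kcnh2, the ERG channel of cardiac repolarization, was higher too (68.7 ± 7.44 TPM against 51.4 ± 4.20 TPM in P. maniculatus), but it overlaps Nos3 in the reference annotation. Kcnh7, the third ERG gene, was lower, at 3.03 ± 0.221 TPM in P. polionotus, against 3.75 ± 0.363 TPM in P. maniculatus (log2 difference -0.23, SE 0.05, adjusted p = 0.00274 by limma). Its ranges overlapped (2.72 to 3.38 TPM in P. polionotus, 3.23 to 4.27 TPM in P. maniculatus). It passed after the burrowing trial (-0.36, adjusted p = 0.00288 by limma) but not after the control trial (-0.10, adjusted p = 0.273). Over both trials the ERG genes thus did not move one way. Kcnh5, an EAG channel, was higher in P. polionotus, at 1.54 to 1.96 TPM, than in P. maniculatus, at 1.10 to 1.49 TPM.

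Channels opened by calcium were higher or did not pass, apart from Kcnma1 under median scaling and quantile normalization, where it passed as lower. Kcnmb4, the neuronal beta subunit that slows the large-conductance BK channel, measured 12.3, 14.0 and 15.6 TPM (lowest, median, highest) in P. polionotus, against 8.92, 10.1 and 11.5 TPM in P. maniculatus. The groups did not overlap (log2 difference 0.42, SE 0.07, adjusted p = 0.000397 by limma). The BK pore Kcnma1 was at 5.56 ± 0.166 TPM in P. polionotus, against 5.94 ± 0.411 TPM in P. maniculatus and did not pass in the main comparison; under median scaling its difference was -0.15 (adjusted p = 0.0180) and under quantile normalization -0.14 (0.0163).

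Of the small-conductance SK channels, which carry part of the afterhyperpolarization, 2 of 3 tested were higher. Kcnn3 measured 2.16, 2.46 and 2.86 TPM in P. polionotus, against 1.08, 1.22 and 1.32 TPM in P. maniculatus. Its level in P. polionotus was about 2.01 times that in P. maniculatus (log2 difference 0.64, SE 0.06, adjusted p = 6.84e-06 by limma). Kcnn2 was higher by 0.35 on the log2 scale (SE 0.07), with means of 7.2 ± 0.61 TPM in P. polionotus, against 5.46 ± 0.627 TPM in P. maniculatus. Kcnn1 did not pass (14.1 ± 2.10 against 13.5 ± 2.49 TPM in P. maniculatus), and neither did the sodium-activated channels Kcnt1 and Kcnt2.

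The inward rectifiers of the Kcnj family gave 4 lower, none higher and 7 not passing. Kcnj14, a strong rectifier of motor and other neurons, measured 7.865, 9.95 and 11.8 TPM (lowest, median, highest) in P. polionotus, against 14.8, 15.7 and 18.55 TPM in P. maniculatus. Its ranges were far apart (log2 difference -0.66, SE 0.08, adjusted p = 5.69e-05 by limma). Kcnj16, which joins Kcnj10 in glial channels, measured 9.73, 10.9 and 12.7 TPM in P. polionotus, against 14.9, 16.05 and 17.9 TPM in P. maniculatus. It too did not overlap (-0.53, SE 0.07, adjusted p = 0.000101 by limma).

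Kcnj10, the main potassium channel of astrocytes, averaged 49.2 ± 2.78 TPM in P. polionotus, against 57.3 ± 9.09 TPM in P. maniculatus. This difference did not pass (-0.20, adjusted p = 0.0735 by limma), but it did under median scaling (-0.27, adjusted p = 0.0135), under quantile normalization (0.0285) and without P. maniculatus control 1 (0.0440). The highest Kcnj10 level, 74.1 TPM, was in P. maniculatus control 3. Summed astrocyte markers ran from 1250 to 1420 TPM in P. polionotus, against 1380 to 1720 TPM in P. maniculatus, with the highest sum in that same library.

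Kcnj3, a subunit of the G protein-gated rectifiers that answer to inhibitory transmitters, was lower in P. polionotus. It measured 8.02, 10.45 and 11.05 TPM there and 11.5, 12.3 and 14.1 TPM in P. maniculatus. The ranges did not overlap (log2 difference -0.28, SE 0.07, adjusted p = 0.00757 by limma), and the lowest value came from P. polionotus control 2. Its partners Kcnj6 (7.2 ± 0.431 TPM in P. polionotus, against 8.02 ± 0.603 TPM in P. maniculatus) and Kcnj9 (176 ± 19.3 TPM in P. polionotus, against 157 ± 26.9 TPM in P. maniculatus) did not pass.

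Of the ATP-sensitive pores, Kcnj8, the vascular one, was called lower, at 3.94 ± 0.572 TPM in P. polionotus, against 5.55 ± 1.53 TPM in P. maniculatus (-0.38, SE 0.14, adjusted p = 0.0392 by limma). The ranges overlapped, and the call was lost when any single library was left out apart from P. maniculatus burrowing 2, P. maniculatus control 2 and P. polionotus control 3 (adjusted p 0.0530 to 0.0916 in the other 9 leave-outs). The endothelial and pericyte list was lower in P. polionotus too, as given above. Kcnj11, the neuronal pore, was level at 99.8 ± 4.18 TPM in P. polionotus, against 100.2 ± 6.37 TPM in P. maniculatus. Kcnj4 and Kcnj2, strong inward rectifiers, did not pass.

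Leak channels of the Kcnk family split, with 3 higher and 2 lower of 8 tested. Kcnk13, the leak channel of microglia in mice, measured 55.2, 57.4 and 72.1 TPM (lowest, median, highest) in P. polionotus, against 32.2, 39.8 and 48.0 TPM in P. maniculatus. No P. polionotus library reached down to the P. maniculatus range (mean ratio 1.52, log2 difference 0.60, SE 0.09, adjusted p = 0.000246 by limma). The summed TPM of the 5 microglia markers was higher in the same libraries, at 215 to 267 TPM in P. polionotus, against 148 to 196 TPM in P. maniculatus. The part of these markers in the Kcnk13 difference was not tested.

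The TREK family of leak channels, opened by stretch and lipids, differed in both directions. Kcnk2 measured 4.78, 4.92 and 5.25 TPM in P. polionotus, against 3.11, 3.63 and 3.98 TPM in P. maniculatus (log2 difference 0.37, SE 0.05, adjusted p = 0.000159 by limma). Its relative Kcnk10 was higher as well (2.76 ± 0.383 TPM against 1.81 ± 0.130 TPM in P. maniculatus), both without overlap. The third relative, Kcnk4, went the other way, with 23.8, 32.3 and 35.8 TPM in P. polionotus, against 44.7, 47.5 and 49.9 TPM in P. maniculatus. Kcnk4 is the most abundant of the trio, and its log2 difference was -0.59 (SE 0.08, adjusted p = 0.000124 by limma). Kcnk3, an acid-sensitive leak channel, was lower in P. polionotus (2.93 ± 0.306 against 3.82 ± 0.221 TPM in P. maniculatus), and Kcnk1 was level (44.2 ± 4.38 TPM in P. polionotus, against 44.4 ± 1.90 TPM in P. maniculatus).

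**Figure D2:**
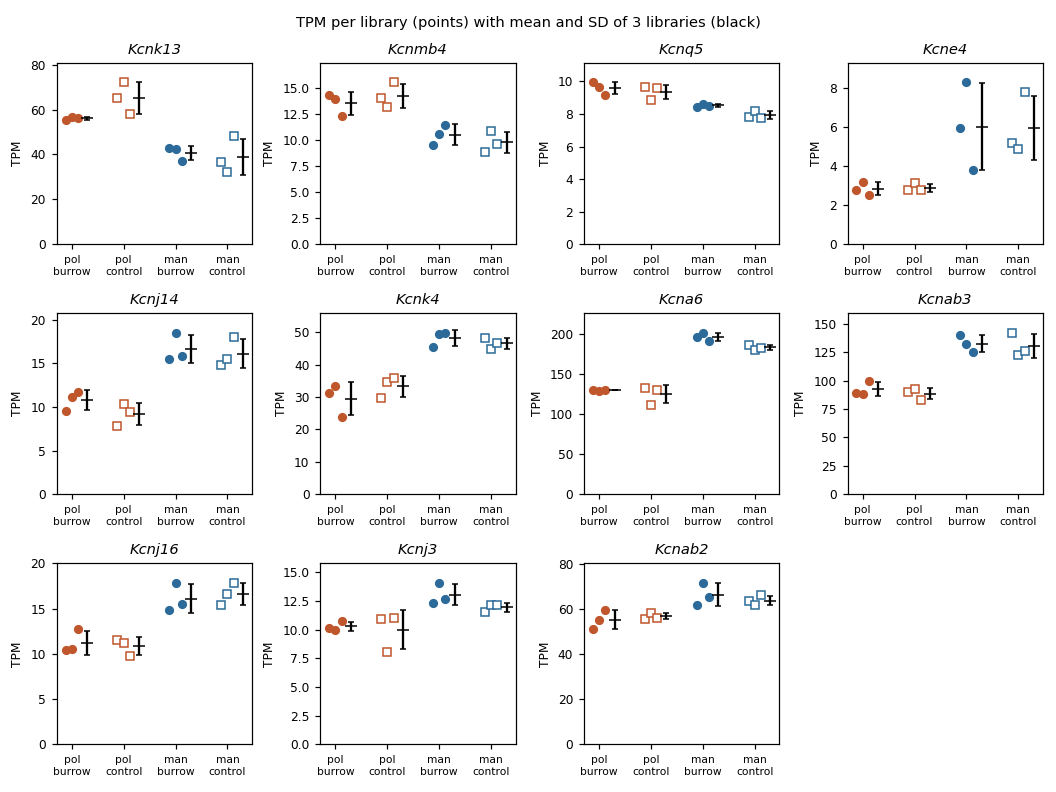
TPM of 11 members called between the species with no overlap and a mean of at least 5 TPM in the higher species, 1 point per library; orange is P. polionotus and blue P. maniculatus, filled circles are burrowing and open squares control trials, and black bars are the mean and SD of 3 libraries. Kcnk13, Kcnmb4 and Kcnq5 lie higher in P. polionotus and the other 8 lower, in both trials.

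Kcnab and Kcne subunits were lower in P. polionotus or did not pass. Kcnab3, a cytoplasmic beta subunit of Kv1 channels, measured 83.2, 89.8 and 99.5 TPM (lowest, median, highest) in P. polionotus, against 122.5, 129 and 142 TPM in P. maniculatus. The gap between the ranges was wide (log2 difference -0.53, SE 0.05, adjusted p = 1.44e-05 by limma). Kcnab2, the commonest Kv1 beta subunit of axons, measured 51.0, 55.9 and 59.4 TPM in P. polionotus, against 61.6, 64.5 and 71.7 TPM in P. maniculatus (log2 difference -0.21, SE 0.05, adjusted p = 0.00392 by limma). Kcnab1 was level, so 2 of the 3 beta subunits were lower together with the pore Kcna6.

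Of the Kcne genes, small membrane proteins that change the gating of several channels, 3 of 4 tested were lower. Kcne4 measured 2.53, 2.78 and 3.18 TPM in P. polionotus, against 3.82, 5.56 and 8.28 TPM in P. maniculatus, the largest negative difference among the 71 members tested on the log2(TPM + 1) scale (-0.82, SE 0.15, adjusted p = 0.000949 by limma). P. maniculatus libraries varied more than P. polionotus libraries here. Kcne3 measured 1.89, 2.35 and 2.77 TPM in P. polionotus, against 3.37, 3.86 and 4.92 TPM in P. maniculatus. Kcne2, which is strong in choroid plexus, was at 0.661 ± 0.0972 TPM in P. polionotus, against 1.60 ± 0.397 TPM in P. maniculatus, and it passed the filter only through P. maniculatus. As a ratio of mean TPM it was further apart (0.414) than Kcne4 (0.478). Choroid plexus markers, of which 5 of 6 were in the table, overlapped between the species, with summed levels of 1330 to 2070 TPM in P. polionotus, against 1150 to 1480 TPM in P. maniculatus. That sum was almost all Ttr, which reached 2030 TPM, while no other marker of the list exceeded 28.6 TPM. The mean log2 level of the list overlapped too (4.48 to 4.84 in P. polionotus, 4.50 to 4.71 in P. maniculatus).

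Among the Kcnip partners of Kv4 channels, Kcnip2 was higher (231 ± 18.4 TPM against 199 ± 6.89 TPM in P. maniculatus; log2 difference 0.21, SE 0.05, adjusted p = 0.00601 by limma) as was Kcnip1. Kcnip4 was lower, with 4.38 ± 0.298 TPM in P. polionotus, against 4.95 ± 0.154 TPM in P. maniculatus (-0.15, adjusted p = 0.0246 by limma). The Kcnip4 call was lost without P. maniculatus burrowing 1 (adjusted p = 0.0506), P. maniculatus burrowing 3 (0.0568), P. maniculatus control 2 (0.0568) or P. polionotus burrowing 2 (0.0650). Kcnip1 shares its place in the reference annotation with Kcnmb1, so the reads of both are uncertain.

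The species were also compared within each trial, which uses separate animals. After the control trial 21 of 71 members differed, 12 higher and 9 lower in P. polionotus (39.6% of all genes called); with median scaling there were 9 higher and 17 lower, and with quantile normalization 10 higher and 16 lower. After the burrowing trial 23 differed, 11 higher and 12 lower (34.1% of all genes called). The same 19 members were called with the same sign in both trials, which is 90.5% of the control-trial and 82.6% of the burrowing-trial calls; over all genes these shares were 70.8% and 82.3%. The shared members included Kcnh2, Kcnh5, Kcnh6, Kcnk2, Kcnk10, Kcnk13, Kcnmb4, Kcnn2 and Kcnn3 among the higher, and Kcna6, Kcnab3, Kcne2, Kcne3, Kcne4, Kcnj14, Kcnj16, Kcnk3 and Kcnk4 among the lower. The sign was the same in both trials for 54 of the 71 members (76.1%), and for 84.1% of all genes.

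Several of these within-trial values rest on few libraries. Without P. polionotus controls 2 and 3 the control-trial count was 13, from a single P. polionotus control library that is assumed to vary like the other groups. Kcne4 then had a difference of -0.85 and no longer passed (adjusted p = 0.112). In the burrowing trial the count fell to 15 without P. polionotus burrowing 2. Kcnk13 then had an adjusted p of 0.0536, and of 0.0684 without P. maniculatus burrowing 3. The burrowing-trial call of Kcnmb4 was lost without P. polionotus burrowing 1 (0.0680), P. polionotus burrowing 2 (0.06535) or P. maniculatus burrowing 1 (0.0758).

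Genes that work with the channels gave a similar mixed picture. Of 27 listed partners and ion transporters 24 were tested, with 4 higher and 4 lower in P. polionotus and a median log2 difference of -0.02. Cntn2 (102 ± 14.6 TPM in P. polionotus, against 77.9 ± 5.77 TPM in P. maniculatus), Lrrc55, Hcn3 and the chloride importer Slc12a2 were higher. Lrrc26, an accessory subunit of BK channels, was lower (5.95 ± 1.96 TPM in P. polionotus, against 12.7 ± 2.81 TPM in P. maniculatus; -1.0, SE 0.19, adjusted p = 0.00133 by limma), as were Amigo1 and Cntnap1. Cntn2 and Cntnap1 both organize the membrane around the node of Ranvier, and they differed in opposite directions.

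The second comparison set burrowing against control trials within each species. No member passed in P. polionotus (0 of 71, with 0.0% of all genes called by limma), and none in P. maniculatus (0 of 71, with 0.00696% of all genes). At an unadjusted p under 0.05 there were 2 members in P. polionotus, against 1 in P. maniculatus, beside 446 genes in P. polionotus and 291 in P. maniculatus. These counts moved with single libraries: in P. polionotus to 1175 genes without control 1 and 237 without control 2, and in P. maniculatus to 5 members and 449 genes without burrowing 1. The trial effects of the species were compared directly, and no member passed there either (0 of 71, 0.0% of all genes; 1 member and 415 genes at an unadjusted p under 0.05, the genes becoming 923 without P. polionotus control 1).

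The members with the smallest p show how large such differences were. In P. polionotus, Kcnj2 averaged 35.05 ± 2.79 TPM after burrowing and 28.85 ± 3.68 TPM after control trials (SD, n = 3 each; log2 difference 0.28, SE 0.09, adjusted p = 0.998 by limma). In P. maniculatus its levels were 29.6 ± 2.19 TPM after burrowing and 29.5 ± 0.898 TPM after control trials. Kcnmb1, at 1.57 ± 0.574 TPM after burrowing and 0.70 ± 0.176 TPM after control trials in P. polionotus, and Kcnk3 came next among the higher. Kcnmb1 passed the filter only through the P. polionotus burrowing libraries, where it was highest. Kcnk13 was at 56.1 ± 0.802 TPM after burrowing and 65.1 ± 7.01 TPM after control trials in P. polionotus, and Kcnk4 and Kcnh7 were the other lower ones. After adjustment over all genes none of them stood out from the spread between libraries. The hindbrain list also separated the trials in P. polionotus, as given above, and its part in these values was not tested.

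In P. maniculatus, Kcnh1, an EAG channel, was at 1.75 ± 0.256 TPM after burrowing and 1.41 ± 0.177 TPM after control trials (log2 difference 0.19, SE 0.09, unadjusted p = 0.0548 and adjusted p = 1 by limma). Its lowest value, 1.21 TPM, came from control 3. Kcnh7 was also among the higher, and Kcnj8, Kcnip1 and Kcnj10 among the lower. Kcnh7 had the smallest p of the difference between the species' trial effects (-0.26, SE 0.10, unadjusted p = 0.0274, adjusted p = 0.993 by limma). It was at 2.88 ± 0.153 TPM after burrowing and 3.18 ± 0.179 TPM after control trials in P. polionotus, and at 4.0 ± 0.272 TPM after burrowing and 3.49 ± 0.258 TPM after control trials in P. maniculatus.

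Hybrids gave the same count: with edgeR on the summed alleles, 0 of 65 members differed between burrowing and control trials (0.0% of all genes called), and 1 member and 90 genes had an unadjusted p under 0.05. Without burrowing 1 these were 17 members and 1844 genes, still with 0 called; without control 2 they were 0 members and 31 genes, and without control 3, 1 member and 182 genes. DESeq2 called 2 of all genes and no member. The 1 member with an unadjusted p under 0.05 by edgeR in all 6 animals was Kcnh5, an EAG channel. It was at 20.6, 31.5 and 23.7 CPM (counts scaled to the library total) in burrowing animals and 16.8, 14.9 and 19.7 CPM in control animals. All 3 burrowing animals lay above all 3 control animals (log2 difference 0.54, SE 0.19, unadjusted p = 0.0202, adjusted p = 0.965 by edgeR). How many of all genes separate the animals like this was not computed. Next were Kcnk5 and Kcna2 among the higher and Kcnk1, Kcnj12 and Kcnab2 among the lower.

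The third comparison set the polionotus against the maniculatus allele inside the F1 animals, where both alleles share the same cells. A share of allele-assigned counts above 50% means more counts from the polionotus allele. By edgeR's quasi-likelihood test with the animal as a block, 29 of 65 members differed (44.6%), 16 with the polionotus allele higher and 13 with it lower. Of all genes 55.7% were called, 34.2% higher and 21.5% lower. The members' share was again smaller in this fit, and that gap was not tested. DESeq2 called 36 of 65 members and 7286 of 11928 genes. The median log2 ratio was 0.11 over the members and 0.11 over all genes. When each allele column was scaled as a library of its own, the median of all genes moved to -0.07 and the split of the members became 12 higher and 24 lower. That scaling called 36 of 65 members and 7001 of 11928 genes. The share was over 50% in all 6 animals for 18 members (27.7%, against 32.4% of all genes) and under 50% in all 6 for 14 members (21.5%, against 20.6%).

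**Figure D3:**
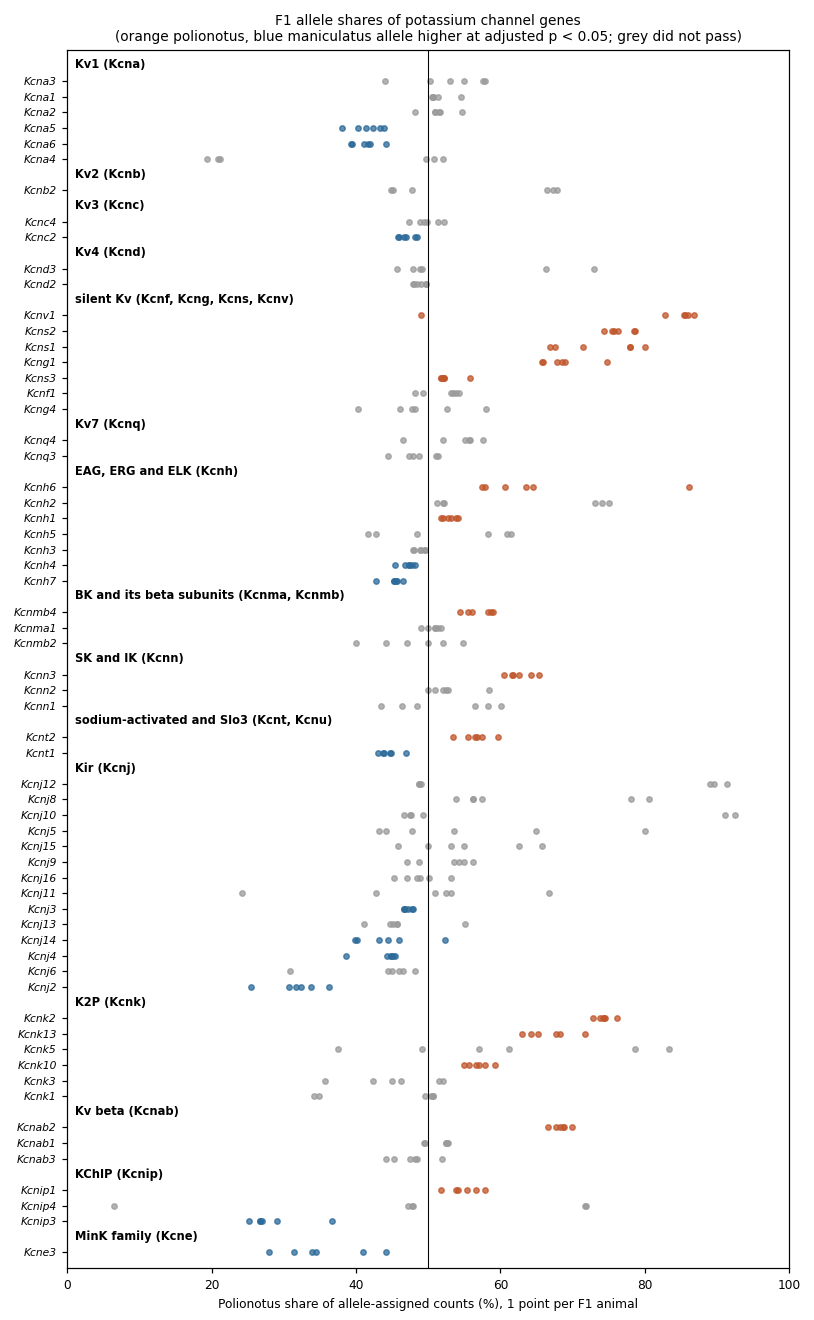
Polionotus share of the allele-assigned counts of 62 of the 65 potassium channel genes in the hybrid table, 1 point per F1 animal, grouped by subfamily; orange and blue mark the 15 and 12 shown that were called with the polionotus allele higher and lower; over all 65 the counts became 12 and 24 when allele columns were scaled separately. Most called genes lie in tight groups of 6 points, whereas some uncalled genes split into separated points.

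Silent subunits, of which none passed between the species, had 5 of 7 members with the polionotus allele higher and none lower in the fit with a shared library size. For Kcns2 the polionotus share was 78.5%, 75.4% and 74.3% in burrowing and 78.7%, 75.7% and 76.3% in control animals. Every animal lay above 74%, with a log2 ratio of 1.70 (SE 0.07, adjusted p = 3.93e-06 by edgeR). Between the species Kcns2 was at 69.2 ± 4.60 TPM in P. polionotus, against 72.4 ± 2.57 TPM in P. maniculatus. Kcns1 (73.6 ± 5.74%) and Kcng1 (68.7 ± 3.31%, SD, n = 6 animals each) were alike in direction, and Kcns3 was closer to balance (52.6 ± 1.60%). Kcnv1 was at 82.8% to 86.8% in 5 animals and 49.0% in control 3.

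Leak channels had 3 of 6 members with the polionotus allele higher and none lower, although Kcnk1 (adjusted p = 0.0433 by edgeR) and Kcnk3 (0.0407) passed as lower when allele columns were scaled separately. Kcnk2 was at 72.8%, 74.5% and 76.1% in burrowing and 73.8%, 74.4% and 74.2% in control animals, a narrow range (log2 ratio 1.53, SE 0.04, adjusted p = 7.04e-07 by edgeR). Kcnk13, counted from 148 to 745 reads per animal, was at 63.0%, 71.7% and 68.3% in burrowing and 64.2%, 65.2% and 67.7% in control animals. It was above 50% in all 6 (log2 ratio 1.01, SE 0.09, adjusted p = 0.000153 by edgeR), in cells that hold both alleles. Kcnk10 (56.9 ± 1.54%) followed. Kcnk1 was uneven, at 50.6%, 34.1% and 34.8% in burrowing and 50.4%, 49.6% and 50.6% in control animals.

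Inward rectifiers had 4 of 14 members with the polionotus allele lower and none higher, although DESeq2 called Kcnj8 (0.88, adjusted p = 0.0146) and Kcnj12 (1.55, adjusted p = 0.0198) higher. Kcnj2 was at 33.7%, 25.4% and 30.7% in burrowing and 36.3%, 32.3% and 31.7% in control animals, below 50% in every one (log2 ratio -1.12, SE 0.10, adjusted p = 0.000146 by edgeR). Kcnj4 (43.9 ± 2.60%), Kcnj14 (44.3 ± 4.57%) and Kcnj3 (47.2 ± 0.568%) were closer to balance. Kcnj14 exceeded 50% in burrowing 3. Kcnj16, lower between the species, was at 48.8 ± 2.69% and did not pass.

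Among Kv1 genes both Kcna6 (41.3 ± 1.80%, log2 ratio -0.51, SE 0.05, adjusted p = 0.000213 by edgeR) and Kcna5 (41.5 ± 2.18%) had the polionotus allele lower, whereas Kcna1 (51.4 ± 1.59%) and Kcna2 (51.3 ± 2.09%) did not pass. Kcnab2 had the polionotus allele higher, at 69.9%, 68.2% and 68.8% in burrowing and 66.6%, 68.7% and 67.7% in control animals. With 5112 to 23462 counts per animal it was among the most precisely counted members (log2 ratio 1.11, SE 0.03, adjusted p = 1.21e-06 by edgeR). Kcnab3 was at 47.6 ± 2.71% and did not pass.

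Kcnip3, a Kv4 partner also known as the transcriptional repressor DREAM, had the lowest mean share of all 65 members. It was at 29.0%, 36.7% and 26.7% in burrowing and 25.1%, 27.0% and 26.7% in control animals. All animals were well below balance (log2 ratio -1.33, SE 0.11, adjusted p = 0.000109 by edgeR), whereas the species were level at 19.0 ± 0.781 TPM in P. polionotus, against 18.6 ± 1.70 TPM in P. maniculatus. The sodium-activated channels parted, with Kcnt1 lower (44.5 ± 1.37%) and Kcnt2 higher (56.5 ± 2.06%). Kcnc2 (47.0 ± 1.11%), Kcnh4 (47.1 ± 0.991%) and Kcnh7 (45.1 ± 1.29%) were lower by small amounts, and Kcnh1 (52.9 ± 0.971%) higher. Under separate scaling of the allele columns Kcnh1 turned to -0.01.

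Of the listed partners and transporters 23 were tested between the alleles, with 4 higher and 5 lower, and a median log2 ratio of 0.01. Abcc9, the partner of Kcnj8, had the polionotus allele higher (63.2 ± 2.67%), as did Lgi1 and Hcn3. Cntnap2, a Kv1 clustering protein of axons, had it lower (38.4%), as did Dpp10, Adam22, Cntnap1 and Hcn2. None of the list passed in a comparison of burrowing with control trials.

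Both comparisons could be set side by side for 58 members. The species difference and the allele ratio were both called with the same sign for 12 of them (20.7%, against 26.5% of all genes), and with opposite signs for 1 (1.72%, against 5.56%). The 12 were Kcnh6, Kcnk2, Kcnk10, Kcnk13, Kcnmb4, Kcnn3 and Kcnip1, higher from the polionotus side in both, and Kcna6, Kcne3, Kcnh7, Kcnj3 and Kcnj14, lower in both. For 12 members only the species difference was called (20% of all genes), for 16 only the allele ratio (23.4%), and for 17 neither (24.6%). A call in one and not in the other does not show that they differ, and that difference was not tested. Across the 58 genes, which share libraries and are not independent replicates, Pearson's r was 0.261 and Spearman's rho 0.315, beside 0.309 and 0.363 over 9989 genes.

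Some of the genes called in both, chosen for those calls, had the following values. Kcnn3 had 2.45 ± 0.254 TPM in P. polionotus, against 1.22 ± 0.0779 TPM in P. maniculatus, and a polionotus share of 62.7 ± 1.81% (log2 ratio 0.75, SE 0.06, adjusted p = 7.93e-05 by edgeR). Kcnmb4 had a share of 57.0 ± 1.92% beside its log2 species difference of 0.42. Kcne3 was at 35.5 ± 6.06%, from 32 to 149 counts per animal, beside -0.56 between the species. Kcnab2 was the member called with opposite signs: the species difference was -0.21, and the allele ratio was 1.11.

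**Figure D4:**
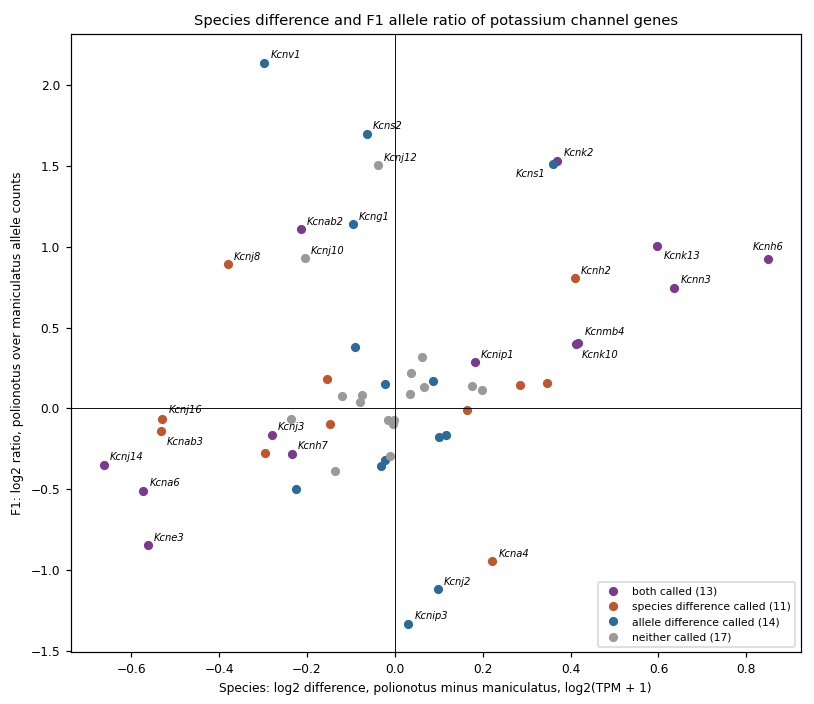
Log2 ratio of polionotus over maniculatus allele counts in F1 animals against the log2 species difference, P. polionotus minus P. maniculatus, for 55 of the 58 members tested in both, colored by which of the comparisons was called at an adjusted p under 0.05. Of the 13 called in both, 12 lie in the quadrants of equal sign and Kcnab2 lies in the upper left.

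The allele ratio was also compared between burrowing and control hybrids. No member passed by edgeR (0 of 65, with 0.226% of all genes called, 0.218% higher and 0.00838% lower; 1 member and 266 genes at an unadjusted p under 0.05). The 27 genes called, 26 of them higher, became 60 (39 higher, 21 lower) without burrowing 1, 43 (36 higher, 7 lower) without burrowing 3, 73 (30 higher, 43 lower) without control 3 and 10 without control 2. DESeq2 called 1 member, Kcnh5 (0.97, adjusted p = 4.71e-05). Its polionotus share was 61.5%, 60.9% and 58.3% in burrowing and 48.4%, 42.8% and 41.7% in control animals. No burrowing animal overlapped a control animal (log2 difference of the ratios 0.94, SE 0.14, adjusted p = 0.238 by edgeR). Kcnn3 also separated the trials, by less and in the other direction. Its share was 61.7%, 60.5% and 61.6% in burrowing and 64.2%, 62.6% and 65.3% in control animals. The share of all genes that separate the trials in this way was not computed. The counts behind these shares were 533 to 913 in burrowing and 187 to 1064 in control animals, and the 95% Wilson interval of control 1 ran from 41.5% to 55.5%.

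Of the 4 neighbors of Kcnh5 looked at in the reference annotation, Syt16 and Rhoj parted the same animals. Syt16 was at 46.8%, 46.6% and 46.2% in burrowing and 20%, 20.7% and 19.5% in control animals. Rhoj was at 49.0%, 48.9% and 47.9% in burrowing and 37.5%, 40.0% and 42.1% in control animals. Wdr89 did so by a hair, at 42.7%, 42.8% and 54.9% in burrowing and 38.1%, 27.9% and 42.6% in control animals. Snapc1 did not, at 58.9%, 54.4% and 58.6% in burrowing and 53.7%, 55.8% and 55.9% in control animals. Kcnh5 was thus not alone at this place in the genome in its split by trial, and the part of alleles that differ between animals was not tested. Without burrowing 1, edgeR called 1 other member, Kcnk1 (-0.94, adjusted p = 0.0152), whose shares are given above.

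Some allele shares varied widely between animals without regard to the trial. Among 60 members with a mean of at least 100 counts, 11 had shares more than 20 points apart between the lowest and the highest animal (18.3%, against 24.4% of all genes). These 11, chosen after their values were seen, were Kcnip4, Kcnj10, Kcnj12, Kcnj11, Kcnv1, Kcna4, Kcnh6, Kcnd3, Kcnj8, Kcnh2 and Kcnb2. Intervals cover counting error only, since reads carry no molecular identifiers. They are wide for the members with few counts, up to 44.1% to 67.7% for Kcnj8 in control 1.

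Kcnip4 had the widest range, at 47.2%, 6.44% and 47.9% in burrowing and 71.7%, 71.9% and 47.7% in control animals. The 95% Wilson interval of the lowest ran from 5.67% to 7.30%. Its shares fell into 3 sets, with burrowing 2 alone at the bottom and controls 1 and 2 at the top. The neighbor Pacrgl had its lowest share, 17.7%, in burrowing 2 and its highest, 74.0% and 74.9%, in controls 1 and 2. On the far side Ppargc1a stayed between 45.7% and 50.8%.

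Kcnj10, the astrocyte channel, was at 46.6%, 47.6% and 92.5% in burrowing and 47.5%, 91.1% and 49.3% in control animals. Burrowing 3 and control 2 thus had nearly all their counts from the polionotus allele, and the other 4 animals were near balance. Total counts were 276 and 259 CPM in those 2 animals and 276 to 364 CPM in the other 4. Pigm, its neighbor, was highest in the same animals (65.5% and 69.1%), whereas Kcnj9, which overlaps Kcnj10 in the annotation, was not (56.2% and 47.0%). The neighbor Igsf8 stayed between 48.1% and 54.2%, and Igsf9 between 52.8% and 55.2%.

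Kcnj12, a strong rectifier, was at 89.6%, 48.7% and 91.4% in burrowing and 89.0%, 49.0% and 48.7% in control animals. Its neighbors Smcr8, Aldh3a1 and Aldh3a2 were highest in the same 3 animals, Smcr8 at 78.8%, 77.8% and 76.3%. Map2k3 did not follow fully, at 43.4% in control 1 and 44.3% in control 3. Kcna4 was at 20.8%, 52.0% and 50.8% in burrowing and 19.4%, 49.7% and 21.1% in control animals. Its neighbor Mettl15 was lowest in the same 3 animals, at 37.9%, 41.1% and 40.1%. Mpped2 was lowest in them by a little (51.7% to 55.2%, against 57.5% to 58.0%). Arl14ep stayed between 83.8% and 88.3%, and Bdnf, between 58.9% and 70.0%, did not set them apart. Kcnj12 and Kcna4 thus set different animals apart.

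Kcnb2 was at 44.9%, 67.8% and 67.3% in burrowing and 45.1%, 66.4% and 47.7% in control animals. Eya1 and Rdh10 near it were high in the same 3. Rpl7, which lies between Kcnb2 and Rdh10, stayed between 45.2% and 49.1%, and Lactb2 between 11.5% and 15.9%. Kcnh2 was at 75.1%, 51.2% and 52.2% in burrowing and 73.1%, 74.1% and 52.0% in control animals. Kcnd3 was high in burrowing 3 and control 3 (66.3% and 73.0%, against 45.7% to 49.2% in the others). Its neighbor Wdr77 was high in this pair too (75.9% and 97.0%), and Ddx20 by a little (55.4% and 55.7%). St7l was low in the pair (48.0% and 47.3%, against 64.2% to 69.3%), and Cttnbp2nl stayed between 50.4% and 55.4%. The same pair of animals was high for Kcnj8 (78.1% and 80.6%, against 53.8% to 57.4%), together with its neighbors Golt1b, Ldhb and St8sia1. Ldhb, counted over 21760 times on average, was at 72.5% and 71.8% in them and at 44.2% to 45.1% in the other 4. In the labels this pair carries animal names of another form than the other 4. The 3 animals high for Kcnh2 carry consecutive numbers. The labels do not say what the names stand for, and other splits, such as that of Kcnj10, did not follow them.

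Kcnh6 and Kcnv1 each had 1 animal apart. Kcnh6 was at 86.1% in burrowing 1 and 57.4% to 64.5% in the others, and its neighbors Mrc2, Dcaf7 and Map3k3 were highest in burrowing 1 as well, at 79.1%, 74.0% and 84.4%. The allele call of Kcnh6 (log2 ratio 0.92, adjusted p = 0.0382 by edgeR) was lost when burrowing 2, burrowing 3 or any of the controls 1, 2 and 3 was left out (adjusted p 0.0554 to 0.0803), and under separate scaling of the allele columns (0.0618). Kcnv1 was at 49.0% in control 3, where its neighbor Trps1 was at 46.9%, against 74.3% to 76.0% in the other animals. Sybu was lowest in control 3 too (36.8%), whereas Eif3h stayed between 75.3% and 78.5% and Ebag9 between 45.0% and 47.2%. Kcnj11 ranged from 24.2% in control 1 to 66.8% in control 2, and its partner and neighbor Abcc8, the sulfonylurea receptor, from 35.8% to 56.5% in the same animals.

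**Figure D5:**
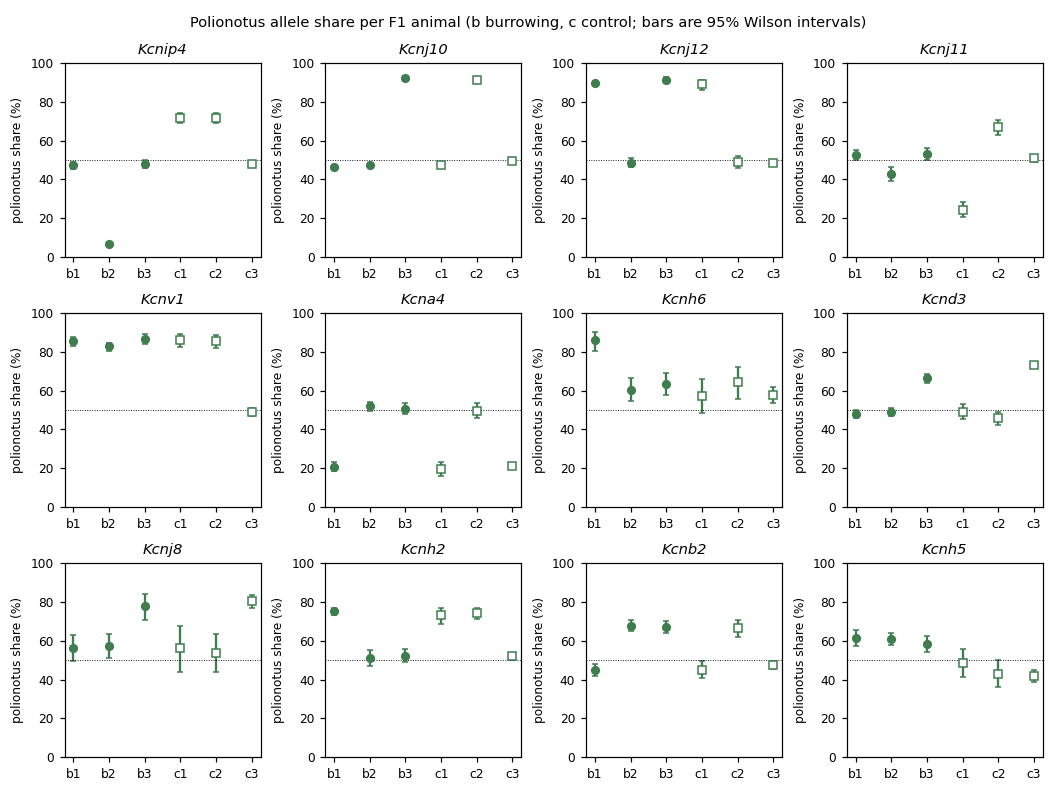
Polionotus share of allele-assigned counts in each F1 animal for the 11 members with a range over 20 points and for Kcnh5; b and c with a number are the burrowing and control animals, and bars are 95% Wilson intervals that cover counting error only. Kcnh5, with a range of 19.8 points, was added to the 11 after its values were seen. It separates all burrowing from all control animals, while the others split the 6 animals in other ways.

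A few members cannot be told from a gene at the same place. In the reference annotation Kcnj13, the choroid plexus rectifier, overlaps Gigyf2. It was listed at 0 to 0.874 TPM in P. polionotus, against 0 to 1.95 TPM in P. maniculatus. In hybrids it had 202 to 1574 allele-assigned counts. Low TPM beside many counts was not particular to Kcnj13. Kcnb2, for which no overlap was found, was at 0.541 to 1.125 TPM in parental libraries and had 408 to 2174 counts in hybrids. Kcnh3 overlaps Mcrs1 and Kcnmb3 overlaps Znf639. The libraries were made with a stranded kit, but the sources used here do not say whether the counting used strand, so these values are uncertain.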

How the data were processed

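Members and lists were chosen with earlier results of these data known. TPM of the 12 parental libraries and counts per allele of the 6 F1 animals were deposited by the authors. Alignment used STAR 2.4.2a, per the submitters' processing notes; the sources used here name no genome build, annotation, TPM tool or way of giving reads to an allele. The count table holds no count under 2, so low genes had been removed. A row of the TPM table that names no gene held 0.789% to 2.48% of each library's TPM and was left out. Groups came from the sample titles. In R 4.3.3, limma 3.58.1 (mean trend) was fitted to log2(TPM + 1), keeping genes whose mean reached 1 TPM, so fold changes understate those of low genes. edgeR 4.0.16 quasi-likelihood tests were fitted to the counts, alleles with the animal as a block, the animal's summed count as library size for both alleles and a mean of at least 20 counts. DESeq2 1.42.0 was an alternative. P-values were Benjamini-Hochberg adjusted over all genes and called under 0.05. Scripts were tested on simulated data. Symbols were matched to the RefSeq assembly HU_Pman_BW_mat_3.1 (90 of 90 members), used for names, overlaps and neighbors only, since the files' build is not given; its sequences were not used here. Named genes were the 8 largest non-overlapping changes per direction between species and reaching 5 TPM in the higher species, the 8 largest allele ratios per direction with at least 100 counts and 6 of 6 animals alike, the 3 smallest p per direction in trial comparisons, up to 6 called in both, the 10 highest levels and a panel of well-known channels. Libraries of a group are separate samples per the labels. Some genes are counted here but are not reported by name or drawn.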

Additional observations from a re-analysis of the deposited data

Results flagged for a closer look

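Of 159 groups of 6 values tested for a single library or animal far from the other 5, 20 were flagged, where chance flags about 1 in 20 groups. The reasons for them were not tested.

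In TPM of P. polionotus, control 2 stood apart for Kcna6 (112.0, others 129 to 132), Kcnj3 (8.02, others 10 to 11.0) and Kcnk2 (5.25, others 4.78 to 4.93), and burrowing 3 for Kcnj4 (29.4, others 42.6 to 49.4). In P. maniculatus, control 3 was low for Kcnh3 (66.8, others 93.8 to 107) and Kcnj4 (30.1, others 43.6 to 50.2) and high for Kcnip1 (8.95, others 6.94 to 7.22). Burrowing 2 of P. maniculatus was high for Kcnd2 (5.14, others 3.85 to 4.16), Kcne2 (2.39, others 1.35 to 1.52) and Kcnma1 (6.76, others 5.68 to 5.89), and burrowing 3 for Kcng1 (7.07, others 4.5 to 5.43).

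In polionotus shares of F1 animals, burrowing 1 was high for Kcnh6 (86.1%, others 57.4% to 64.5%), burrowing 2 for Kcnip3 (36.7%, others 25.1% to 29.0%) and Kcnn2 (58.4%, others 50.0% to 52.7%), and burrowing 3 for Kcng1 (74.8%, others 65.8% to 69.0%). Control 1 was low for Kcnh7 (42.7%, others 45.2% to 46.5%) and Kcnj4 (38.6%, others 44.3% to 45.4%) and high for Kcnj13 (55.1%, others 41.1% to 45.7%). Control 2 was high for Kcna1 (54.6%, others 50.5% to 51.4%), and control 3 was low for Kcnv1 (49.0%, others 82.8% to 86.8%).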

How the results depend on the processing

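Counts of members called between the species kept within 1.5 times of the values reported under most alternatives. With a mean of at least 5 TPM required, 48 members were tested, and 18 were called over both trials, 12 in the control trial and 13 in the burrowing trial. Without P. polionotus controls 2 and 3 the control-trial count was 13, with a single P. polionotus control library left and its spread taken from the other groups. Leaving out 1 library at a time gave 26 to 30 members over both trials, 19 to 23 in the control trial and 15 to 25 in the burrowing trial. For the allele ratio, leaving out 1 animal gave 26 to 29, and DESeq2 called 36 (19 higher, 17 lower). For the difference of the allele ratio between trials DESeq2 called 1 (Kcnh5), and leaving out 1 animal gave 0 to 1 (Kcnk1 without burrowing 1). In all trial comparisons of the parental species and of summed F1 alleles the count stayed 0 under every alternative run.

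Same-numbered libraries did not deviate together in every pair (correlations of 0.254, 0.126 and 0.0994 in P. maniculatus, 0.0484, -0.0741 and -0.229 in P. polionotus and -0.447, -0.567 and 0.19 in F1 animals), so replicate numbers were not treated as pairs. With a replicate block 32 members were called over both trials, 23 in the control and 25 in the burrowing trial, and 0 in each trial comparison. The allele fit with no replicate block for the animal called 20 members, 14 higher and 6 lower, and 0 for the difference between trials.

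Of single-gene values, 2255 kept their direction and side of the threshold, 63 lost and 36 gained a call, 41 changed sign without a call on either side, and 2 reversed under separate scaling of the allele columns: Kcnh1 (-0.009782, adjusted p = 0.867) and Kcnma1 (-0.14, adjusted p = 0.0251), by edgeR. The counts over 20 points of share range were 16 of 60 members at 15 points, 6 at 30 points and 9 of 52 with a mean of at least 300 counts, alternatives chosen after seeing the data. TPM carry no depth, and with 3 libraries per group small trial differences were not detectable.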
